A study of Mus musculus with 6 samples.

Results

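The genes described here encode core proteins of the splicing machinery and the hnRNP proteins that coat new transcripts. They were chosen by symbol: every row of the deposited expression table that names a single gene beginning with Snrp, Srsf, Sf3a, Sf3b, Hnrnp or Lsm. This gave 57 genes of the 10041 rows, namely 11 Snrp, 10 Srsf, 8 Sf3, 16 Hnrnp and 12 Lsm genes, spread over 17 chromosomes. The rule itself reads symbols and no measured value. All cultures began as mouse naive CD4 T cells and were stimulated for 48 h by anti-CD3e coated on the plate (10 µg/ml) and anti-CD28 (1 µg/ml), in medium with the cytokines TGF-β1 (2.5 ng/ml), IL-23 (10 ng/ml) and IL-6 (20 ng/ml), which drive cells to become Th17 cells, the helper T cells that make IL-17. The treated cultures received oligomycin at 2.5 ng/ml, an inhibitor of the mitochondrial ATP synthase, and the controls received its solvent DMSO. Each group had 3 RNA-seq libraries, and strain, sex and age are not given in the labels. The comparison asks which transcripts depend on oxidative phosphorylation during Th17 differentiation.

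Introns are removed by the spliceosome, which is built on each intron from small nuclear ribonucleoproteins (snRNPs). Every major snRNP other than U6 holds a ring of Sm proteins (Snrpb, Snrpd, Snrpe, Snrpf and Snrpg gene products) around its RNA, while U6 RNA is held by a ring of Lsm proteins. The U1 snRNP recognises the start of an intron, and the U2 snRNP with its SF3A and SF3B complexes binds the branch point near its end. SR proteins (Srsf genes) bind exons and promote the use of nearby splice sites, and hnRNPs bind introns and exons and often repress them. Activated T cells are known to enlarge their RNA-processing machinery as they begin to grow and divide, and several of these proteins control alternative exons of T cell surface receptors.

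Levels are in FPKM, a fragment count divided by transcript length and by a measure of library size, so they are relative and per length. How library size was set is not given in the sources used here. How deeply the libraries were sequenced is unknown. Across genes, Pearson correlations between libraries in log2(FPKM + 1), where genes are not independent replicates, were 0.940 to 0.962 among the oligomycin libraries, 0.963 to 0.969 among the DMSO libraries and 0.890 to 0.937 between the groups. All 7 T cell markers looked for were in the table. They summed to 799 to 948 FPKM in oligomycin libraries and 853 to 1002 FPKM in DMSO libraries. At an adjusted p under 0.05 in the limma fit described below, 2 of the 7 were lower with oligomycin and 0 higher. The 6 Th17 markers were also all present and summed to 301 to 475 FPKM with oligomycin and 1695 to 1959 FPKM with DMSO. In the same fit 4 of these 6 were lower and 0 higher, beside 16.1% and 14.0% of all tested genes. The table listed none of 6 B cell, 5 dendritic cell and 5 erythroid markers, 1 of 7 myeloid markers (Cd68, 2.39 to 5.07 FPKM with oligomycin and 1.08 to 2.07 FPKM with DMSO), 1 of 4 NK cell markers (Klre1, 0 to 0.469 FPKM with oligomycin and 1.18 to 2.03 FPKM with DMSO) and 1 of 2 CD8 T cell markers (Cd8b1, 2.41 to 3.30 FPKM with oligomycin and 2.63 to 3.12 FPKM with DMSO). The part of the Th17 marker difference in the results for splicing genes was not tested. In these bulk cultures, fewer cells of a type and less RNA per cell cannot be told apart.

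Most transcripts of the splicing genes had somewhat lower levels with oligomycin, and none was called higher. Of the 57 genes, all of which passed the filter on low values, 10 fell (17.5%) and 0 rose at an adjusted p under 0.05 (limma on log2(FPKM + 1), 2-sided, Benjamini-Hochberg over 9986 genes). The background was 16.1% of all tested genes called lower and 14.0% called higher (30.2% in either direction), so the share that fell was close to that of all genes. The genes that fell were Srsf9, Snrpd1, Lsm2, Snrpa1, Hnrnpm, Lsm3, Snrpc, Hnrnpl, Snrpb and Hnrnpa2b1, with group means 1.32-fold to 1.74-fold lower. At an unadjusted p under 0.05, 19 genes were lower and 0 higher, against 22.2% and 20.6% of all tested genes.

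The direction was shared more widely than the calls. The fitted log2 change was below 0 for 53 of the 57 genes, against 50.4% of all tested genes, and its median was -0.23, against -0.0044 for all tested genes. The 4 genes above 0 were Lsm14a (0.20), Lsm10 (0.15), Lsm14b (0.13) and Sf3b3 (0.08), and none of these was called. On other scales the direction was less uniform: 45 of 57 were below 0 both with quantile normalization and with libraries rescaled to equal sums. The median of all tested genes was also higher there, at 0.03 and 0.10. The share of all tested genes below 0 was not counted on those scales. All 3 oligomycin libraries lay below all 3 DMSO libraries for 22 of the 57 genes and above them for 0, where the background was 24.3% lower and 23.1% higher. The splicing genes were abundant transcripts, with a median level of 74.3 FPKM against 14.7 FPKM over all tested genes. Of the 35 splicing genes with a mean of at least 50 FPKM, a class added after the data were seen, 8 fell (22.9%), 0 rose and 34 had a log2 change below 0, with a median of -0.28. Of all 1690 genes in that class, 22.7% fell, 10.7% rose and 65.6% had a log2 change below 0, with a median of -0.17.

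**Figure D1:**
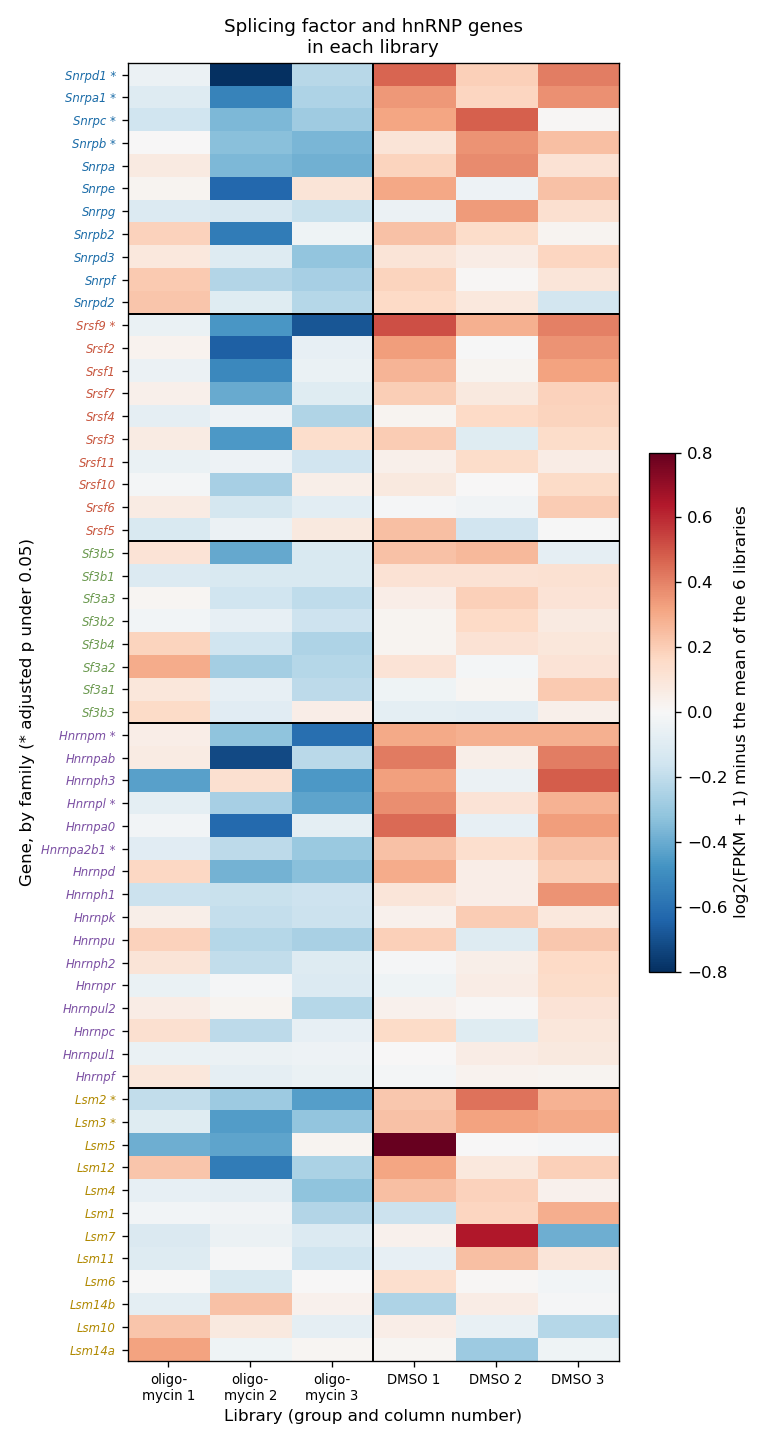
Each row is 1 of the 57 genes, grouped by family, and each column 1 library, oligomycin on the left and DMSO on the right. Colour gives log2(FPKM + 1) minus the gene's mean over the 6 libraries (red above, blue below), and an asterisk marks the 10 genes with an adjusted p under 0.05. Oligomycin libraries 2 and 3 are mostly blue, oligomycin library 1 is paler, and the DMSO libraries are mostly red.

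The oligomycin libraries were not alike for these genes. Relative to each gene's mean over the 6 libraries, the median gene stood at 0.00018, -0.20 and -0.17 (log2) in oligomycin libraries 1, 2 and 3, and at 0.16, 0.06 and 0.15 in DMSO libraries 1, 2 and 3. The same medians over all tested genes ran between -0.05 and 0.04. Oligomycin library 1 lay below the lowest DMSO value for 27 of the 57 genes, library 2 for 46 and library 3 for 45, against 34.4%, 39.0% and 42.0% of all tested genes. Library 1 was the highest of the 3 oligomycin libraries for 42 of the 57 genes, a count not made over all tested genes. Without that library, 15 genes fell and the median log2 change was -0.31, where 18.8% of all tested genes were called lower. The number of genes that fell was 7 without oligomycin library 2, 5 without oligomycin library 3, 3 without DMSO library 1, 6 without DMSO library 2 and 4 without DMSO library 3. The shares of all tested genes called lower in those 5 fits were 14.1%, 11.2%, 10.8%, 10.5% and 10.0%, so the count over all genes moved with the library left out as well. None of the splicing genes rose in these fits.

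The size of the shift also depended on how libraries were set to a common scale. With each library rescaled to the same FPKM sum outside small RNA rows, 8 splicing genes fell and 0 rose, and their median log2 change was -0.12. Of all tested genes, 1278 were then called lower and 1915 higher, where the deposited scale gave 1610 and 1403, and the median of all genes moved to 0.10. The splicing genes' median minus that of all genes was -0.22 under this scaling and -0.23 on the deposited scale. With quantile normalization 5 fell and 0 rose, at a median of -0.12 against 0.03 for all genes. That scaling called 14.5% of all tested genes lower and 15.5% higher, so a smaller share of the splicing genes fell than of all genes. The median of each of the 5 families was below 0 under every scaling tried.

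**Figure D2:**
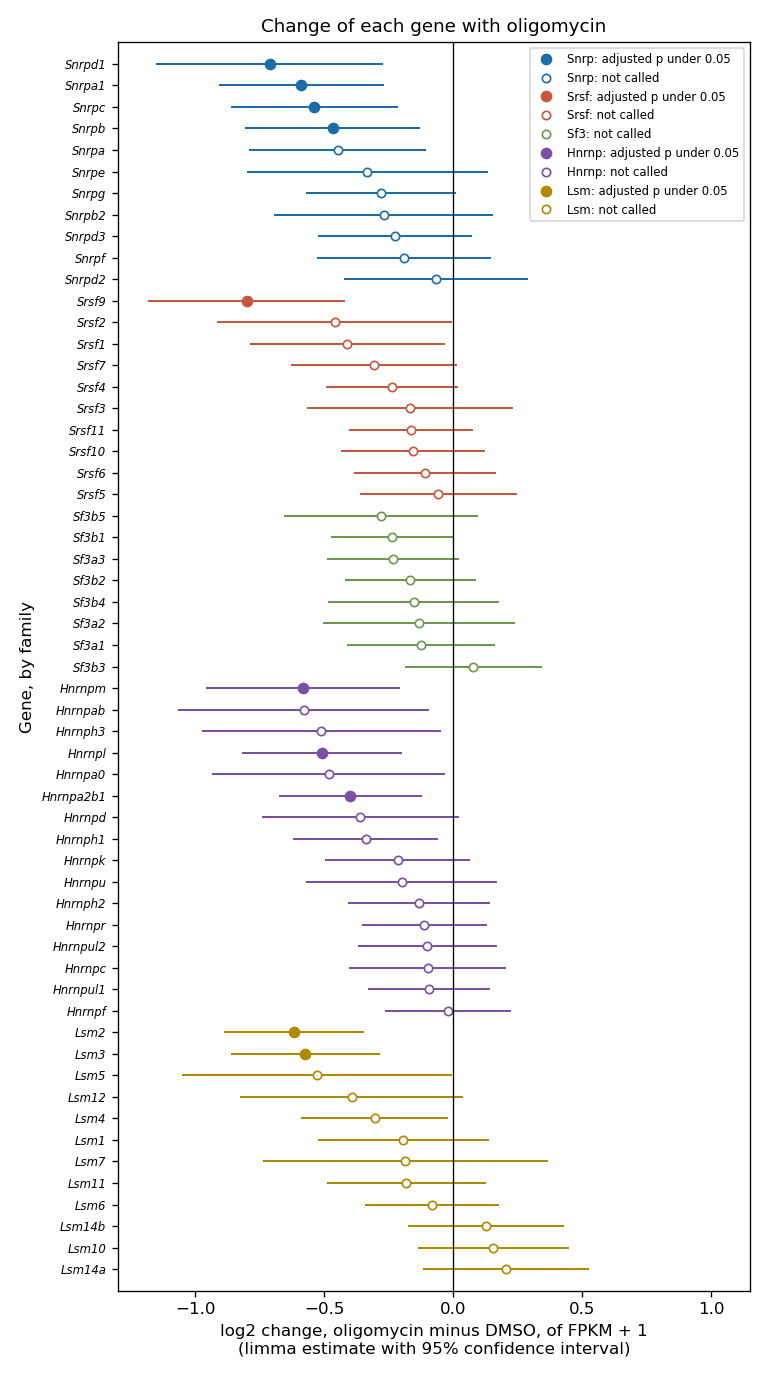
Points give the limma estimate of the log2 change of FPKM + 1, oligomycin minus DMSO, for each of the 57 genes, and lines its 95% confidence interval; filled points mark an adjusted p under 0.05. Estimates run from -0.80 for Srsf9 to 0.20 for Lsm14a, and on this scale, that of the deposited FPKM, 4 of 57 lie to the right of 0.

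Srsf9, Lsm2 and Lsm3 were the genes called lower whichever library was left out, and in each of 10 other settings. Srsf9 encodes an SR protein known to act on alternative exons and splice sites, and lies at chr5:115327177-115333080 (GRCm38, mm10). It had 38.3, 28.5 and 24.3 FPKM with oligomycin and 57.2, 48.5 and 52.9 FPKM with DMSO. The groups were apart, and the log2 level of Srsf9 fell by 0.80 (SE 0.17, adjusted p = 0.00874), with means of 30.4 ± 7.16 FPKM with oligomycin and 52.9 ± 4.36 FPKM with DMSO (SD, n = 3 each). Lsm2, on chr17:34981854-34985893, and Lsm3, on chr6:91516035-91522620, are neighbouring parts of the Lsm ring. Lsm2 stood at 47.1, 44.0 and 39.6 FPKM with oligomycin and 63.0, 73.3 and 65.7 FPKM with DMSO. Its highest oligomycin library was well below its lowest DMSO library, and its log2 level fell by 0.62 (SE 0.12, adjusted p = 0.00624). Lsm3 stood at 122, 95.9 and 105 FPKM with oligomycin and 154, 164 and 162 FPKM with DMSO. It fell by 0.57 (SE 0.13, adjusted p = 0.0112), and its largest adjusted p with a library left out was 0.0499, without DMSO library 3.

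The promoters of these 3 genes are shown because their calls held in every setting. That of Hnrnpl was picked for its repeated CCAAT boxes. Each sequence is the 250 bases before the annotated start, from the RefSeq promoter table for GRCm38.p6, all on the + strand, with matches to the motifs searched in capitals. Positions count from 0 at the annotated start, which was also the first base of the deposited locus for all 4 genes. Srsf9 is shown for chr5:115326927-115327176, Lsm2 for chr17:34981604-34981853, Lsm3 for chr6:91515785-91516034 and Hnrnpl for chr7:28810640-28810889. A second annotated start of Lsm2 lies further into the gene and is not shown.
Srsf9: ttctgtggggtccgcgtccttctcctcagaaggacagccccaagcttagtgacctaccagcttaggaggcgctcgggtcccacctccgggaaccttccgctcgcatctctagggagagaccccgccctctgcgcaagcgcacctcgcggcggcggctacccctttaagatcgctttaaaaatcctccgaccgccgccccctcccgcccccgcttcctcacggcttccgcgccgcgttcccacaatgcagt
Lsm2: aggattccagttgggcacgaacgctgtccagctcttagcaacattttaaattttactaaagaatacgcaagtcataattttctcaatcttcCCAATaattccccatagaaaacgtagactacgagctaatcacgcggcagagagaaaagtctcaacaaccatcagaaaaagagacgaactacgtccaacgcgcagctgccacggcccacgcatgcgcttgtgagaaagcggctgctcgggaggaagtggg
Lsm3: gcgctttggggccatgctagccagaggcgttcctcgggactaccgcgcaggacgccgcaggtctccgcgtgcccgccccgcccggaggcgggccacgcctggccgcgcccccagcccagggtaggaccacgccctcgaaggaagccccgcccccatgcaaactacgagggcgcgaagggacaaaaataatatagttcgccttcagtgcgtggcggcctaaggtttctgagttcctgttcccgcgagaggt
Hnrnpl: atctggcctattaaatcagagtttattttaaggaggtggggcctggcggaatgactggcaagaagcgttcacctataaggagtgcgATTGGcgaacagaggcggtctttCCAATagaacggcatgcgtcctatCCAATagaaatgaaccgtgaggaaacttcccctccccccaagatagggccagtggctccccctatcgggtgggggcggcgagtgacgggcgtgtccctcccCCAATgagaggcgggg
The capitals mark CCAAT boxes, read as CCAAT or, on the other strand, ATTGG. They begin at position -159 in Lsm2 and at -164, -141, -117 and -16 in Hnrnpl, and the windows of Srsf9 and Lsm3 held none of the motifs searched.

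The full windows, which run 250 bases before to 50 bases after a start, were in the table for 49 of the 57 genes, as 65 windows, and for 8 of the 10 genes that fell. A CCAAT box occurred in 46.2% of the 65 windows, against 38.6% of the 9087 windows of genes in the expression table. It was in 4 of the 10 windows of genes that fell (40.0%), among them overlapping windows of Hnrnpa2b1. The ETS motif CCGGAAG, either strand, occurred in 32.3% of the windows (21 of 65), against 19.8% of windows of genes in the expression table and 8.86% of all 32851 windows. Of the 10 windows of genes that fell, 1 held it (10.0%). The E-box CACGTG, which is its own reverse complement, occurred in 9.23% of the 65 windows and 10.6% of windows of genes in the expression table. A TATA box written as TATAAA, either strand, occurred in 9.23% and 6.52%. The YY1 motif AAGATGG, either strand, occurred in 6.15% and 7.57%, and the NRF1 motif, a palindrome, in 1.54% and 2.36%. The motifs did not overlap one another in the sequences shown.

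Of the 11 Snrp genes 4 fell (36.4%), 0 rose and 7 were not called, at a median log2 change of -0.33. Of all tested genes, 16.1% were called lower and 14.0% higher. All 11 Snrp genes were below 0 on the deposited scale, and all but Snrpd2 with quantile normalization or equal sums. In the Sm ring, 2 of 7 genes fell. Snrpd1, the gene of SmD1, had 83.8, 49.6 and 74.1 FPKM with oligomycin and 120.4, 98.9 and 116 FPKM with DMSO. Every oligomycin value lay below the DMSO range, with oligomycin library 2 the lowest, and Snrpd1 fell by 0.71 (SE 0.19, adjusted p = 0.0251). Snrpb, the gene of SmB, on chr2:130171636-130179364, had 301, 239 and 233 FPKM with oligomycin and 324, 386 and 356 FPKM with DMSO. The gap between its groups was narrow, between 301 and 324 FPKM, and it fell by 0.47 (SE 0.15, adjusted p = 0.0449). The call of Snrpd1 was lost without DMSO library 1 (adjusted p = 0.0823), without DMSO library 3 (0.0798) and with quantile normalization (0.0582). With 1 library left out, Snrpb was called only where that was oligomycin library 1, and its adjusted p otherwise ran from 0.0732 to 0.141. Its call was also lost with quantile normalization (0.142) and with libraries rescaled to equal sums (0.0681).

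The other Sm genes were not called. Snrpd2, the second most abundant Sm transcript, had 277, 222 and 203 FPKM with oligomycin and 265, 252 and 214 FPKM with DMSO, with groups that overlapped and a log2 change of -0.07 (SE 0.16, adjusted p = 0.765) whose sign turned with quantile normalization, with equal sums and without oligomycin library 3. Snrpe stood at 183, 116 and 194 FPKM with oligomycin and 224, 175 and 212 FPKM with DMSO, so that of its oligomycin libraries only the second lay below the DMSO range. The log2 changes of Snrpe, Snrpg, Snrpd3 and Snrpf were -0.33, -0.28, -0.23 and -0.19, with adjusted p from 0.129 to 0.352. The Sm proteins meet in 1 ring, yet their transcripts differed 4.81-fold between the highest and the lowest mean with oligomycin and 5.86-fold with DMSO.

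Among proteins of single snRNPs, Snrpa1 and Snrpc fell. Snrpa1 encodes the A′ protein of the U2 snRNP, which helps to hold that particle together, on chr7:66060336-66074587, and had 83.6, 61.7 and 75.5 FPKM with oligomycin and 114, 101 and 116 FPKM with DMSO. It fell by 0.59 (SE 0.14, adjusted p = 0.0149), with no overlap between groups. Snrpb2, whose product is its partner there, had a log2 change of -0.27 (adjusted p = 0.297), with means of 61.5 ± 15.6 FPKM with oligomycin and 72.8 ± 5.44 FPKM with DMSO. Snrpc encodes the C protein of the U1 snRNP, which steadies the pairing of U1 with the start of the intron, on chr17:27840087-27851967. It had 23.9, 20.7 and 21.9 FPKM with oligomycin and 33.8, 37.9 and 27.1 FPKM with DMSO, and fell by 0.54 (SE 0.14, adjusted p = 0.0225). Snrpa, the gene of the A protein of the U1 snRNP, had 30.8, 22.6 and 22.2 FPKM with oligomycin and 33.2, 38.4 and 31.8 FPKM with DMSO; its log2 change was -0.45 (SE 0.15, adjusted p = 0.0534). The call of Snrpa1 was lost without DMSO library 1 (0.0558) or DMSO library 3 (0.0635). That of Snrpc was lost without DMSO library 1 (0.0737), DMSO library 2 (0.0776), oligomycin library 2 (0.0519) or oligomycin library 3 (0.0638).

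The 6 genes whose products belong to both Lsm rings, the nuclear ring on U6 RNA and the cytoplasmic ring that helps to decap mRNA, had a median log2 change of -0.42, and of these Lsm2 and Lsm3 fell. All 6 were below 0 on the deposited scale, while Lsm6 was above 0 with equal sums. Lsm4 had 96.1, 95.6 and 80.3 FPKM with oligomycin and 119, 114 and 103 FPKM with DMSO, without overlap, and a log2 change of -0.30 (SE 0.13, adjusted p = 0.0974). Lsm5, Lsm7 and Lsm6 had log2 changes of -0.53, -0.19 and -0.08 and were not called. In Lsm5, DMSO library 1 stood at 33.9 FPKM and the other two DMSO libraries at 19.1 and 18.9 FPKM. Lsm1, which belongs to the cytoplasmic ring alone, had a log2 change of -0.19 (adjusted p = 0.341). Lsm10 and Lsm11, which replace a pair of Sm proteins in the U7 snRNP that processes histone mRNA, had log2 changes of 0.15 and -0.18 and were not called. Of the 3 remaining genes, Lsm14a and Lsm14b, whose products act on translation and in cytoplasmic RNA granules, were above 0 and Lsm12 was at -0.39 (adjusted p = 0.147), with 33.6, 19.1 and 23.8 FPKM with oligomycin and 35.8, 30.4 and 32.8 FPKM with DMSO. Across the 12 Lsm genes 2 fell (16.7%), 0 rose and 10 were not called, at a median of -0.19. The share that fell was close to the 16.1% of all tested genes called lower.

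None of the 8 Sf3 genes was called in either direction, beside 30.2% of all tested genes. For 0 of the 8 limma gave an unadjusted p under 0.05 (the smallest was 0.0501, for Sf3b1). Their median log2 change was -0.16, at -0.13 for the 3 SF3A genes and -0.17 for the 5 SF3B genes. Sf3b1, the large subunit that closes around the branch point, had 107, 106 and 106 FPKM with oligomycin and 125, 125 and 126 FPKM with DMSO. Its libraries agreed more closely within groups (SD of 0.680 with oligomycin and 0.284 FPKM with DMSO) than those of the other genes whose library values were chosen by rule. Its log2 change was -0.24 (SE 0.10, adjusted p = 0.117), where the SE draws on the spread of genes of like level, and it shrank to -0.05 with quantile normalization. Sf3b2, which binds RNA near the branch point, had 119, 116 and 108 FPKM with oligomycin and 123, 135 and 127 FPKM with DMSO (log2 change -0.17, SE 0.11, adjusted p = 0.283). Sf3b5, a small subunit, had 177, 123 and 151 FPKM with oligomycin and 193, 196 and 156 FPKM with DMSO, with overlapping groups (log2 change -0.28, SE 0.16, adjusted p = 0.225). Sf3b3 was the exception in direction, at 105, 88.0 and 97.5 FPKM with oligomycin and 89.0, 88.7 and 96.8 FPKM with DMSO. Sf3a3, Sf3b4, Sf3a2 and Sf3a1 had log2 changes of -0.23, -0.15, -0.13 and -0.13. Sf3b3 and Sf3a3 share their locus with a row for a small RNA.

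Of the 10 Srsf genes only Srsf9 fell, 0 rose and 9 were not called, beside 16.1% of all tested genes called lower. The median log2 change of the 10 was -0.20. In 5 the oligomycin libraries all lay below the DMSO libraries, beside 24.3% of all tested genes. Among tested genes with a mean of at least 50 FPKM, that held for 601 of 1690. All 10 were below 0 on the deposited scale, while Srsf5 and Srsf6 were above 0 with quantile normalization and with equal sums. Srsf2, which binds exonic enhancers, had 254, 158 and 237 FPKM with oligomycin and 314, 249 and 319 FPKM with DMSO. Srsf1, the founding member of the SR family, had 196, 141 and 196 FPKM with oligomycin and 245, 206 and 254 FPKM with DMSO. In both genes library 2 was the lowest of its group with oligomycin and with DMSO alike, and their log2 changes of -0.46 (SE 0.20, adjusted p = 0.114) and -0.41 (SE 0.17, adjusted p = 0.0933) were not called. Srsf7 (-0.31), Srsf4 (-0.24), Srsf3 (-0.17), Srsf11 (-0.16), Srsf10 (-0.16), Srsf6 (-0.11) and Srsf5 (-0.06) had adjusted p from 0.132 to 0.761. Srsf2, Srsf3, Srsf5, Srsf6 and Srsf10 had groups that overlapped, and the mean of Srsf5 was 67.1 ± 4.76 FPKM with oligomycin and 70.2 ± 9.88 FPKM with DMSO.

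Of the 16 Hnrnp genes 3 fell (18.8%), 0 rose and 13 were not called, at a median log2 change of -0.28. The share that fell was close to the 16.1% of all tested genes called lower. All 16 Hnrnp genes were below 0 on the deposited scale and 12 with quantile normalization or equal sums. Hnrnpc, Hnrnpf and Hnrnpul1 were above 0 in both of these cases, Hnrnpu in the first and Hnrnpul2 in the second. Hnrnpm, whose product regulates alternative exons, lies on chr17:33646233-33685458 and had 87.2, 66.8 and 55.0 FPKM with oligomycin and 104, 102 and 103 FPKM with DMSO. Its 3 oligomycin libraries were spread widely below a tight DMSO group, and it fell by 0.58 (SE 0.16, adjusted p = 0.0293). Hnrnpl, on chr7:28810890-28822266, encodes a regulator of the variable exons of the T cell phosphatase CD45. It had 123, 108 and 96.9 FPKM with oligomycin and 169, 141 and 158 FPKM with DMSO, and fell by 0.51 (SE 0.14, adjusted p = 0.023). Hnrnpa2b1, an abundant RNA-binding protein that also takes part in RNA transport, lies on chr6:51460435-51469894. It had 226, 208 and 196 FPKM with oligomycin and 283, 264 and 283 FPKM with DMSO, with no overlap, and fell by 0.40 (SE 0.12, adjusted p = 0.0376).

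None of these 3 calls held with every library left out. That of Hnrnpl was lost without oligomycin library 3 (adjusted p = 0.0837), DMSO library 1 (0.0887) or DMSO library 3 (0.0832). With 1 library left out, Hnrnpm and Hnrnpa2b1 were called only where that was oligomycin library 1. Otherwise the adjusted p ran from 0.0594 to 0.0883 for Hnrnpm and from 0.0724 to 0.133 for Hnrnpa2b1. Quantile normalization ended the calls of Hnrnpm (0.0577), Hnrnpl (0.0824) and Hnrnpa2b1 (0.173), and equal sums that of Hnrnpa2b1 (0.0818).

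The most abundant of all 57 transcripts was Hnrnpab, an hnRNP of the A/B type, at 409.5, 238 and 338 FPKM with oligomycin and 524, 404 and 520.5 FPKM with DMSO. Its change of -0.58 was as large as that of Hnrnpm, but oligomycin library 1 lay inside the DMSO range and it was not called (SE 0.21, adjusted p = 0.071); its locus is shared with a row for Agxt2l2. Hnrnph1, a G-rich sequence binder, had 115, 115 and 116 FPKM with oligomycin and 139, 134 and 167 FPKM with DMSO, which did not overlap (log2 change -0.34, SE 0.12, adjusted p = 0.0684). Hnrnpa0 and Hnrnph3 had changes of -0.48 (adjusted p = 0.097) and -0.51 (0.0897), and Hnrnph3 shares its locus with Rufy2. Hnrnpd, which binds AU-rich elements of unstable mRNAs, stood at 9.08, 5.93 and 6.15 FPKM with oligomycin and 10.0, 8.31 and 9.29 FPKM with DMSO (log2 change -0.36, adjusted p = 0.134). Hnrnpk (-0.22, sharing its locus with Rmi1), Hnrnpu (-0.20), Hnrnph2 (-0.13), Hnrnpr (-0.11), Hnrnpc (-0.10), Hnrnpul2 (-0.10) and Hnrnpul1 (-0.09) were not called. Hnrnpf was the least moved, at 81.4, 72.8 and 73.7 FPKM with oligomycin and 75.6, 77.8 and 77.7 FPKM with DMSO (log2 change -0.02, SE 0.11). Hnrnpa1 is not among the 57 because its row also names Gm5643; that row had 5.11, 4.80 and 5.70 FPKM with oligomycin and 6.72, 5.32 and 6.64 FPKM with DMSO. Many hnRNP and Sm genes have near-identical processed copies, and how reads that match several places were counted is not given in the sources used here, so their levels are uncertain.

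**Figure D3:**
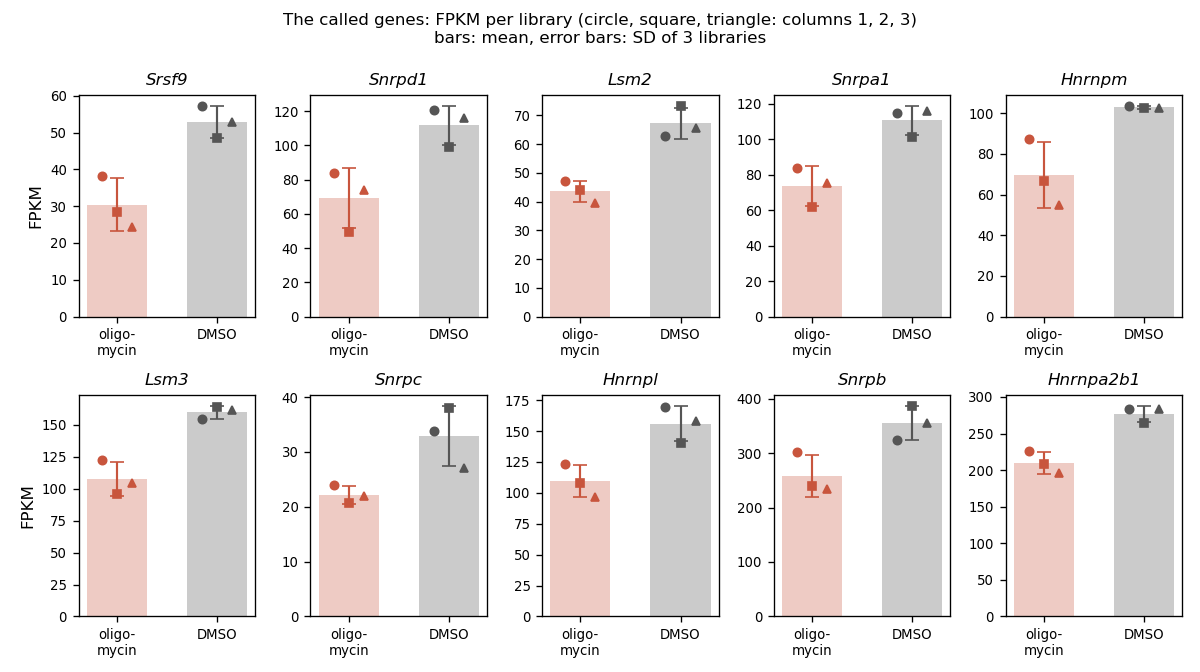
FPKM of the 10 genes that fell, oligomycin on the left and DMSO on the right of each panel; bars give the mean, error bars the SD of 3 libraries, and circle, square and triangle stand for libraries 1, 2 and 3. In each panel the 3 oligomycin values lie below the 3 DMSO values, and the highest oligomycin and lowest DMSO values are closest as a ratio in Snrpb (301 against 324 FPKM).

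In the rest of the splicing pathway, genes were called in both directions. In 10 lists of other splicing and linked RNA-processing genes, 152 of 162 genes were tested, of which 22 fell (14.5%) and 8 rose (5.26%), at a median log2 change of -0.09, beside 16.1% and 14.0% of all tested genes. These counts depended on the scale. With libraries rescaled to the same sum 9 fell and 14 rose, at a median of 0.02, where all tested genes gave 12.8% lower and 19.2% higher. With quantile normalization 13 fell and 13 rose, where all tested genes gave 14.5% lower and 15.5% higher. With a library left out, 6 to 33 fell and 2 to 8 rose, and 10.0% to 18.8% of all tested genes were called lower. Without rows that share a locus, 134 were tested, of which 22 fell and 5 rose. That fit called 17.7% of all tested genes lower and 14.9% higher. Of the 30 called genes, 6 were called with any library left out, namely Ppil1, Prpf38a, Clk3, Celf2 and Snrnp25, which fell, and Smg1, which rose. The other 24 lost the call in at least 1 of those fits.

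Of the 7 genes of U snRNP proteins with Snrnp symbols, 4 fell and 0 rose, at a median of -0.43. With quantile normalization 2 fell and 1 rose, with equal sums 2 fell and 0 rose, and with a library left out 1 to 4 fell and 0 rose. Snrnp25, a protein of the minor spliceosome, had 31.8, 23.6 and 26.2 FPKM with oligomycin and 41.6, 42.7 and 40.6 FPKM with DMSO and fell by 0.61 (SE 0.13, adjusted p = 0.00974). Snrnp70, the U1-70K protein, averaged 89.8 ± 2.71 FPKM with oligomycin and 123 ± 7.64 FPKM with DMSO (SD, n = 3 each) and fell by 0.45 (adjusted p = 0.0169). Among Prpf and tri-snRNP factors 2 of 17 fell and 0 rose (median -0.08, which turned to 0.03 under equal sums). These were Prpf38a (means of 35.5 ± 4.22 FPKM with oligomycin and 53.6 ± 1.77 FPKM with DMSO, adjusted p = 0.00821) and Eftud2, a GTPase of the U5 snRNP (adjusted p = 0.0254). In the Prp19 complex, which activates the assembled spliceosome, 2 of 15 fell and 0 rose (median -0.12). Ppil1, a prolyl isomerase of that complex, had 86.0, 62.9 and 69.1 FPKM with oligomycin and 120.4, 121 and 125 FPKM with DMSO and fell by 0.75 (SE 0.14, adjusted p = 0.00483). Of 10 branch point and 3′ splice site factors outside SF3, 3 fell and 0 rose (median -0.27), among them Rbm17 (adjusted p = 0.0342) and U2af1, the subunit that reads the end of the intron (adjusted p = 0.0447). With quantile normalization, with equal sums and in 5 of the 6 fits with a library left out 0 of these 10 fell, and 5 fell without oligomycin library 1.

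Among genes that assemble, drive or modify the machinery, calls were few and went both ways. Of 11 spliceosomal helicases 0 fell and 0 rose (median -0.01), and 1, Ddx46, was lower at an unadjusted p under 0.05. The helicase median was 0.08 with quantile normalization and 0.10 with equal sums. Of 17 genes of the SMN complex and snRNP assembly 0 fell and 1 rose, at a median of -0.19, and 15 were below 0. The gene that rose was Wdr77 (log2 change 0.42, adjusted p = 0.0453), which shares its locus with another row. Its call held in 1 of the 6 fits with a library left out. Without oligomycin library 1, 4 of the 17 fell and 0 rose. In the other fits with a library left out 0 fell and 0 to 1 rose. Of 8 kinases of SR proteins, 1 fell and 1 rose, and 7 had log2 changes above 0, with a median of 0.26. Clk3 had 17.6, 20.6 and 20.4 FPKM with oligomycin and 32.7, 35.6 and 30.0 FPKM with DMSO and fell by 0.72 (SE 0.12, adjusted p = 0.00316). Srpk1, which phosphorylates SR proteins in the cytoplasm, had 101, 120.3 and 98.1 FPKM with oligomycin and 64.7, 82.6 and 74.0 FPKM with DMSO and rose by 0.52 (SE 0.14, adjusted p = 0.0223). The call of Srpk1 was lost in 3 of the 6 fits with a library left out.

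Among 42 other splicing regulators 5 fell and 3 rose (median -0.07). With equal sums 1 fell and 7 rose (median 0.04), with quantile normalization 4 fell and 7 rose (median 0.0098), and with a library left out 1 to 6 fell and 0 to 3 rose. Celf2, a regulator of alternative exons during T cell activation, had 10.3, 9.67 and 9.50 FPKM with oligomycin and 19.5, 16.9 and 17.0 FPKM with DMSO and fell by 0.80 (SE 0.11, adjusted p = 0.00149). Mbnl3 fell by 0.49 (adjusted p = 0.0237), while Cirbp (0.56, adjusted p = 0.0242) and Rbmx (0.46, adjusted p = 0.0285) rose. Cirbp and Rbmx share their loci with other rows. Without such rows, 5 of 35 other regulators fell and 1 rose. In the exon junction complex and nonsense-mediated decay, the pathway that removes transcripts with early stop codons, 4 of 17 fell and 2 rose (median -0.01). With equal sums 1 fell and 2 rose (median 0.09), with quantile normalization 2 fell and 2 rose, and with a library left out 0 to 6 fell and 1 rose. Smg1, the kinase that starts this decay, had 20.8, 28.2 and 23.5 FPKM with oligomycin and 15.3, 14.9 and 14.0 FPKM with DMSO and rose by 0.67 (SE 0.13, adjusted p = 0.00709). Upf3a rose by 0.50 (adjusted p = 0.0328) and its paralog Upf3b fell by 0.53 (adjusted p = 0.0149). The call of Upf3a was lost with any library left out. Of 9 decapping partners of the cytoplasmic Lsm ring 1 fell and 1 rose, at a median of 0.14. Dcps fell by 0.64 (adjusted p = 0.0278) and Xrn1, which degrades decapped mRNA, rose by 0.48 (adjusted p = 0.0293). With equal sums 1 fell and 3 rose, and with a library left out 0 to 1 fell and 0 to 1 rose. The call of Dcps held in 2 of the 6 fits with a library left out, and that of Xrn1 in 1. Dcps shares its locus with another row.

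**Figure D4:**
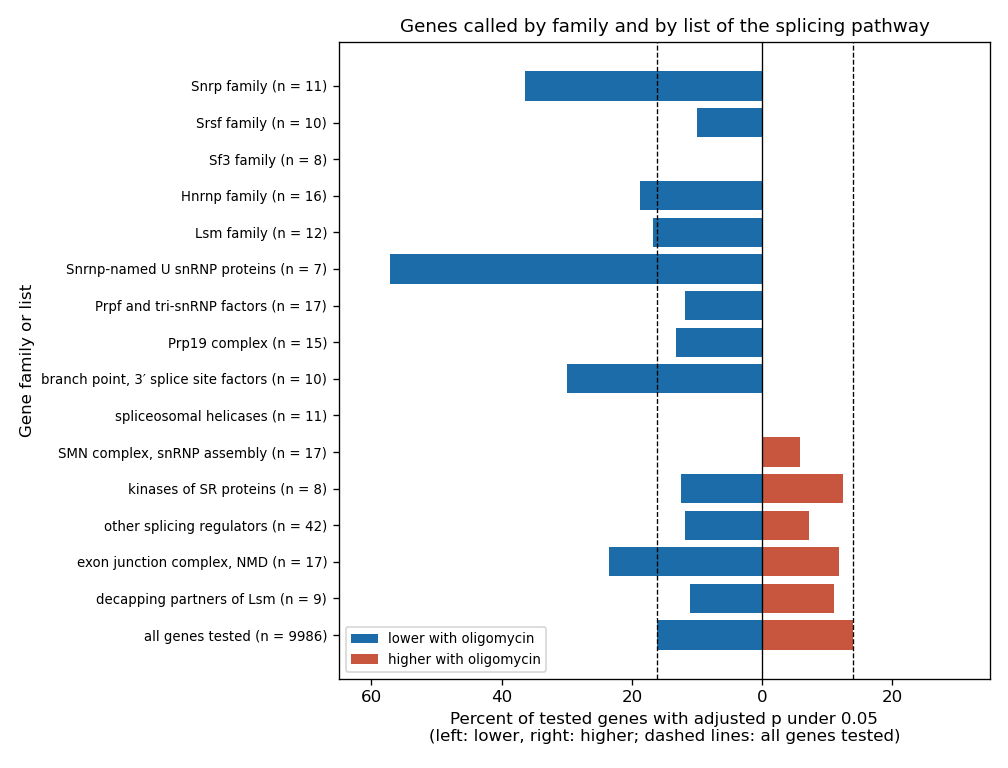
Bars give the percentage of tested genes called lower (left, blue) and higher (right, red) with oligomycin for the 5 families, the 10 lists of other splicing genes and all genes tested, with n in brackets; dashed lines mark the 16.1% lower and 14.0% higher of all genes. The 5 families have no bar on the right.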

How the data were processed

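RNA-seq libraries of 6 mouse Th17 cultures, 3 with oligomycin and 3 with DMSO, were used. The authors deposited 1 FPKM value per gene and library, per the file headers. Per the submitters' processing notes, the build was GRCm38 (mm10) and the tools were Cuffdiff 2.2.1.3, Cuffnorm 2.2.1.1, Cufflinks (version 2.2.1.0) and TopHat2 (version 2.1.0); for settings, annotation and scaling, nothing is given in the sources used here. Small RNA rows, which are short and so have high FPKM, took 80.2% to 82.2% of the FPKM sum in oligomycin libraries and 71.1% to 78.0% in DMSO libraries. Column numbers 1 to 3 occur in no sample title, so columns were mapped to groups only. Nothing states that libraries came from separate animals, so p-values measure the spread between these libraries.

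Values were tested as log2(FPKM + 1), which understates changes of low genes, with limma 3.58.1 (R 4.3.3): intensity trend, group alone, 2-sided, Benjamini-Hochberg over the 9986 genes with at least 1 FPKM in at least 3 libraries. Fold values are ratios of group means. Exact permutation of 3 against 3 cannot go below p = 0.1. The script was tested on data simulated from these libraries, with 200 genes changed. It called 59 of 100 genes changed by 1 log2, 7 of 100 changed by 0.5 and 2 unchanged genes. In the real data 3013 genes were called, so these shares need not carry over. A gene not called may still have changed.

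Members and lists were chosen with earlier results of these data known. Values per library are given for genes called (adjusted p under 0.05) and, per family, for the 2 with the highest mean and the 2 with the largest change; of each pathway list, up to 2 called genes per direction with the smallest p are named, of the 3 the rule allowed. Values of other genes were chosen after they were seen. Starts are counted from 1. Lsm8, Hnrnpa3, Hnrnpdl, Hnrnpll, Snrpn and Sf3b6 are not analysed here.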

Additional observations from a re-analysis of the deposited data

How the results depend on the processing

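Of 287 recomputed values of the 18 splicing genes given by rule, 245 kept direction and call, 34 lost the call, 4 gained it and 4 turned sign; of 332 values of the named genes of the other lists, 259 kept both and 73 lost the call. The sign turned in Sf3b2 with quantile normalization (log2 change 0.027), and Snrpd2 with quantile normalization (0.13), equal FPKM sums (0.046) and without oligomycin library 3 (0.029; -0.19 at the lowest with another library left out). With quantile normalization 5 of the 57 genes fell, beside 14.5% of all tested genes. Of the 5, 2 were in the Snrp and 0 in the Hnrnp family, at family medians of -0.13 and -0.099. With equal sums the Lsm median was -0.093. The cause was not tested. With 1 library left out, 3 to 15 genes fell: 0 to 6 Snrp, 0 to 5 Hnrnp, 2 to 3 Lsm, 1 Srsf and 0 Sf3. Those fits called 10% to 18.8% of all tested genes lower, and the Lsm median in them ran from -0.27 to -0.13. Pseudocounts of 0.1 and 0.5, no filter, a filter of 5 FPKM and no intensity trend gave 10 lower each. Of all tested genes, 15.5% to 17% were called lower in those fits. Median centring gave 11 lower, beside 16.3% of all tested genes. Leaving out rows that share a locus gave 11 lower of the 52 left, beside 17.7% of all tested genes. None of the 57 rose in any setting. A replicate block by column number gave 14 lower, with 3 Srsf and 5 Hnrnp, where 18.7% of all tested genes were called lower. The block called Srsf1 (adjusted p = 0.0341) and Srsf2 (0.0317) and ended the call of Snrpb (0.0545). The sample titles share their numbers across the groups, but those numbers are not on the columns. Libraries with the same column number deviated together with correlations of 0.0556, 0.247 and 0.132. Between libraries of different numbers the correlations ran from -0.216 to 0.117. Whether the numbers pair the cultures is not known, so the main fit has no block. Oligomycin libraries 2 and 3 correlated best with the DMSO library of their own number, and oligomycin library 1 with DMSO library 3 (0.117). Depth is unknown, so no counting error could be given, and 3 libraries per group limit the precision.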
